A study of Rattus norvegicus with 6 samples.

Results

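The count rows of 3 genes were followed through the 6 libraries of primary rat oligodendrocytes (OLs): Ank3, which encodes ankyrin G, Nfasc, which encodes neurofascin, and Tubb3, which encodes beta-tubulin III. They were picked by identifier, as 3 of the 32552 Ensembl genes in the count files. Wild-type OL precursors were purified with anti-O4 beads from the cortices of Sprague-Dawley Crl:CD (SD) rat pups, 2 of mixed sex pooled for an isolation. The series gives the pups as 7 days old, and the methods as 6 to 7 days. The cells spent 10 days in culture, differentiation included, on polyacrylamide hydrogels of 50 kPa. These were either flat (3 libraries) or shaped into pillars 22 µm tall and 5 µm across with gaps of 10 µm (3 libraries). Cells on both substrates received the same media, first with PDGF-AA for 2 days and then with thyroid hormone. The comparison therefore asks what substrate shape goes with. No source says whether libraries came from separate isolations or separate cultures, so p-values measure the spread between these libraries, which may be technical.

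Ankyrins are adaptors that tie membrane proteins to the spectrin skeleton under the membrane. Ankyrin G and neurofascin, an adhesion molecule of the L1 family whose cytoplasmic tail binds ankyrins, are known together from the axon initial segment, the nodes of Ranvier and the paranodal junctions, where the loops of an OL's myelin sheath meet the axon. OLs make a shorter glial form of neurofascin for the paranode, and neurons make a longer form for the node. Beta-tubulin III is a microtubule subunit that is widely used as a marker of neurons. The counts are per gene and do not separate the glial from the neuronal forms.

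On Rnor6.0, the build of the count files, Ank3 (ENSRNOG00000053288) lies on chromosome 20, 20105047 to 20480623, on the plus strand, with 54 separate exonic blocks. Nfasc (ENSRNOG00000030515) lies on chromosome 13, 49335408 to 49522415, on the minus strand, with 34 blocks. Tubb3 (ENSRNOG00000017209) lies on chromosome 19, 56220755 to 56229813, on the plus strand, with 4 blocks. The exons of Ank3 and Nfasc sum to 10472 and 10488 bases and those of Tubb3 to 1767 bases. None of the 3 shares an exonic base with another annotated gene, so that reads of a neighbour could not enter their counts through overlapping exons.

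The promoter windows of the genes are shown so that the start regions of Nfasc and Tubb3 can be set beside that of Ank3. The rise on micropillars passed the test for Nfasc and Tubb3, and the smaller rise of Ank3 did not. That contrast depends on the setting, since Ank3 passed in 6 of the 16 alternatives given below. The change in the ratio of Nfasc to Ank3 also missed the threshold after adjustment. A link between these sequences and the rise was not tested. The windows are RefSeq's on GRCr8, 250 bases before to 50 bases after an annotated start, written 5′ to 3′ on the gene's strand. Ank3 is annotated on the minus strand of GRCr8 and on the plus strand of Rnor6.0. Capitals mark a GC box (GGGCGG) or a TATA box (TATAA), searched on both strands, and where TATAA lies on both strands the matches overlap.
Tubb3, chr19:68365437-68365736, plus strand: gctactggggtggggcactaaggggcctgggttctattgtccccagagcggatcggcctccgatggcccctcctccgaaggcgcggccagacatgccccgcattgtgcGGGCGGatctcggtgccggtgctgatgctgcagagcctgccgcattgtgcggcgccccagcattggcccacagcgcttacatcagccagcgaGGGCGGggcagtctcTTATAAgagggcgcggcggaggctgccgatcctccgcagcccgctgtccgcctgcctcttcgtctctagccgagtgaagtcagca
Nfasc, chr13:46701115-46701414, minus strand: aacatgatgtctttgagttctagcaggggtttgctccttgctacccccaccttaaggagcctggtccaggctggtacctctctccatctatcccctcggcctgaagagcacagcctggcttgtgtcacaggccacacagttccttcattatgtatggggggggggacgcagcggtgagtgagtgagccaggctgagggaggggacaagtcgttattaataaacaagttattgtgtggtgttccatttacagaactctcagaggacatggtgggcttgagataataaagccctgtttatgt
Ank3, chr20:18929128-18929427, minus strand: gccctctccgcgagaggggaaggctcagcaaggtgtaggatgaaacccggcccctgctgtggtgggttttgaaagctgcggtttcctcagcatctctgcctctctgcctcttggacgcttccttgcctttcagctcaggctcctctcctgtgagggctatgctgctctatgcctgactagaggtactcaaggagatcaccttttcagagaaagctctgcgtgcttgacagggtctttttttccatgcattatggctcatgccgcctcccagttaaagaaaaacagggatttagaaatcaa

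The Tubb3 window held 2 GC boxes, starting 142 and 50 bases before the start, and a TATA box match starting 35 bases before it. Neither motif was found in the Ank3 window or in either of the 2 Nfasc windows, of which the upstream one is printed. Among the 33469 promoter windows of that table, 33.1% held a GC box and 26.2% a TATA box. Of the other motifs searched, a SOX core (ACAAT) had 3 matches in the Tubb3 window and 1 in each Nfasc window. A CCAAT box (CCAAT) had 1 match each in the Tubb3 window and the Nfasc window not printed. That Nfasc window alone held an E-box (CANNTG), and the Ank3 window held none of these motifs. Over all windows, 33.7% held a SOX core, 37.5% a CCAAT box and 72.1% an E-box. The Tubb3 window was 67.3% G and C with 26 CG dinucleotides, against 52.7% and 7 for Ank3, 51.3% and 4 for the printed Nfasc window, and medians of 51.7% and 7 over all windows. A match is a string of letters and not a bound site, and the counts do not show which start was used.

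Between 10645621 and 15624525 reads were counted on genes in a library. Levels are CPM, the counts of a gene as a rate per 1e6 counts of the library after scaling between libraries with the TMM method, and log2 fold changes are micropillar against flat from the quasi-likelihood test of edgeR, with p-values adjusted by the Benjamini-Hochberg method over the 13163 genes tested. At an adjusted p under 0.05, 26.7% of these genes differed, 15.3% being higher on micropillars and 11.4% lower (2014 and 1500 genes), and 24.3% were higher in all 3 micropillar libraries than in all 3 flat ones. Scaling by library totals turned the split to 1414 higher and 2448 lower and shifted the median over all genes by -0.13 on the log2 scale. The share of counts on mitochondrially encoded genes was 4.90% to 6.78% in flat libraries and 3.81% to 4.18% in micropillar libraries, and its part in the results was not tested. In bulk RNA, more cells of a type and more of an RNA in each cell cannot be told apart.

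Nfasc was the most abundant of the 3 genes and rose by 1.77-fold on micropillars. Flat replicates 1, 2 and 3 held 4825, 3556 and 3187 CPM, against 6706, 6790.25 and 6933 CPM for micropillar replicates 1, 2 and 3. Each micropillar library thus exceeded each flat library, and the lowest of them stood 1.39 times above flat replicate 1, the highest flat one. The group levels were 3856 ± 859 CPM (SD, n = 3) for flat and 6809.9 ± 115 CPM (SD, n = 3) for micropillar hydrogels. The log2 fold change of 0.82 (standard error 0.17) had an adjusted p of 0.0085 in edgeR's quasi-likelihood test, and leaving out any 1 library kept it under the threshold (largest adjusted p 0.043, without micropillar replicate 2).

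Tubb3 changed the most, by 2.17-fold. It stood at 212, 175 and 135 CPM in the flat libraries and at 385, 379.9 and 367 CPM in the micropillar libraries, in the order of the replicates. The groups were again apart, with the lowest micropillar value 1.73 times the highest flat value. Group levels of 174 ± 38.4 and 377 ± 9.35 CPM (SD, 3 libraries each) gave a log2 fold change of 1.12 (standard error 0.15) with an adjusted p of 0.0020 in edgeR's quasi-likelihood test. This made Tubb3 a DEG, a gene that also changed by more than 1 on the log2 scale, as were 3.61% of all tested genes in that direction. Without flat replicate 3, its lowest library, the log2 fold change was 0.96, and with scaling by library totals it was 0.99, so that the size criterion was missed while the adjusted p stayed at 0.0063 and 0.0030.

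Ank3 had the smallest difference, and it did not pass the test with all 6 libraries. Its level was 505, 348 and 383 CPM in flat replicates 1, 2 and 3 and 543, 542 and 564 CPM in micropillar replicates 1, 2 and 3. The groups did not overlap, but flat replicate 1 came within 1.07 times of the lowest micropillar library, while the other flat libraries lay well below. With 412 ± 82.5 CPM on flat and 549.8 ± 12.6 CPM on micropillar hydrogels (SD, 3 libraries each), Ank3 differed by 0.42 on the log2 scale (standard error 0.15, adjusted p = 0.058 in edgeR's quasi-likelihood test). The call turned on flat replicate 1 and on the tool: without that library the log2 fold change was 0.62 (adjusted p = 0.0024), and DESeq2's Wald test on all libraries gave 0.41 (adjusted p = 0.024). Over the 16 alternatives the adjusted p of Ank3 ran from 0.0024 to 0.16.

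**Figure D1:**
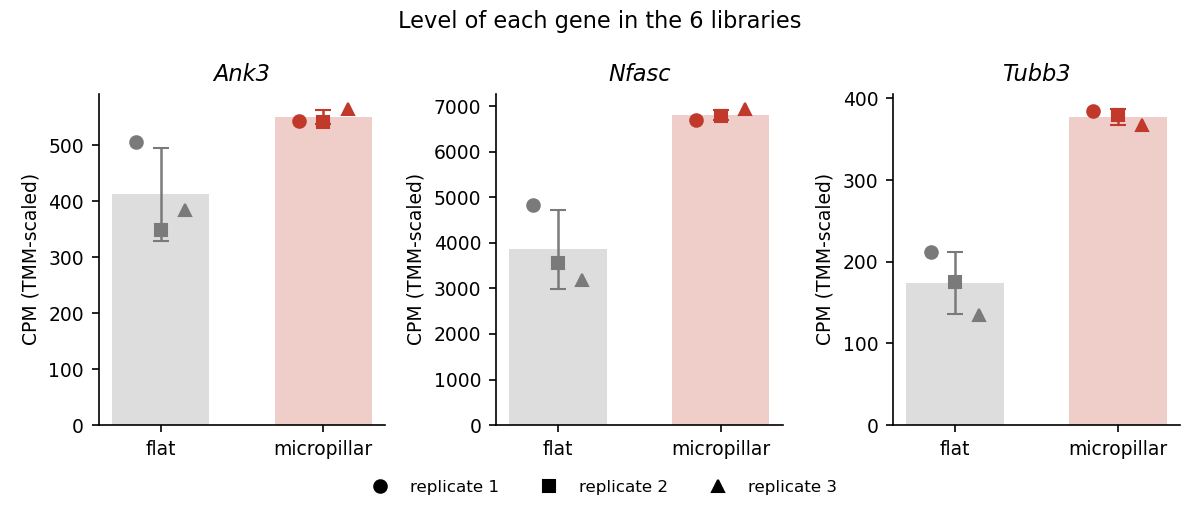
Level in CPM (TMM-scaled) of Ank3, Nfasc and Tubb3. Bars show the mean of 3 libraries, error bars the SD, and each symbol is a library, with its shape giving the replicate number. All micropillar libraries lie above all flat libraries in each gene, by the narrowest margin in Ank3, where flat replicate 1 reached 505 CPM.

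Libraries on micropillars were much closer to each other than those on flat hydrogels. The coefficient of variation between libraries was 20.01%, 22.3% and 22.1% for Ank3, Nfasc and Tubb3 on flat hydrogels and 2.29%, 1.69% and 2.48% on micropillars. Counting error was small beside the flat spread, since the fewest reads behind any of these values, 1504 for Tubb3 in flat replicate 3, give an error of 2.58%. The same contrast held over all tested genes, with a median SD of log2 CPM of 0.24 on flat hydrogels and 0.11 on micropillars. Micropillar replicates 1 and 2 were the closest pair, with a median variance between them of 1.85 times the sampling noise, against 3.46 and 3.50 for the other micropillar pairs and 9.91 to 11.6 for the flat pairs. When they were summed into 1 library, Nfasc and Tubb3 remained past the threshold (adjusted p = 0.042 and 0.014 in edgeR's quasi-likelihood test).

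Across genes, levels were compared per kb of exonic sequence. On flat hydrogels Nfasc stood at 368 ± 81.9 CPM per kb, Tubb3 at 98.4 ± 21.8 and Ank3 at 39.4 ± 7.88 (SD, 3 libraries each). On micropillars the levels were 649 ± 10.9, 214 ± 5.29 and 52.5 ± 1.202 CPM per kb. The order Nfasc, Tubb3, Ank3 held in each of the 6 libraries, and no neighbours in that order came near each other. Averaged over the libraries, Nfasc lay above 99.1% of the tested genes on this scale, Tubb3 above 96.2% and Ank3 above 85.4%. The exonic length of Ank3 and Nfasc sums exons of several transcripts, so a per-kb level understates a gene whose OL transcript uses only some of them.

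The ratios between the 3 genes ask whether they moved by different amounts, without regard to how libraries are scaled. Tubb3 gained on Ank3: reads of Tubb3 per read of Ank3 were 0.419, 0.503 and 0.352 in flat replicates 1, 2 and 3 and 0.709, 0.701 and 0.650 in micropillar replicates 1, 2 and 3. The difference was 0.71 on the log2 scale (95% interval 0.35 to 1.06, adjusted p = 0.0043 from limma on the ratios of all tested genes to Ank3). Nfasc also stood higher against Ank3, with 9.55, 10.2 and 8.31 reads per read of Ank3 on flat hydrogels and 12.3, 12.5 and 12.3 on micropillars. That difference of 0.41 (95% interval 0.05 to 0.77) missed the threshold after adjustment (adjusted p = 0.064 from limma) and passed it without flat replicate 1 (0.028), without flat replicate 2 (0.030) and on the deposited rlog values (0.049). The SD of this log2 ratio was 0.15 in flat and 0.015 in micropillar libraries, and limma's standard error was 0.17. Limma draws that error in part from other genes, so the miss does not rest on these values alone.

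Between Tubb3 and Nfasc no difference in change was shown. Tubb3 had 0.0439, 0.0492 and 0.0423 reads per read of Nfasc in the flat libraries and 0.0574, 0.0560 and 0.0529 in the micropillar libraries. The values did not overlap, and the difference of 0.30 had a 95% interval from -0.05 to 0.65 (adjusted p = 0.12 from limma), so that a gain of Tubb3 on Nfasc of up to 0.65 on the log2 scale is within these data. Without flat replicate 1 the adjusted p was 0.041. Between libraries this log2 ratio had an SD of 0.11 on flat and 0.06 on micropillar hydrogels. Limma's standard error was 0.17 and is again drawn in part from other genes. For each of these 3 ratios the exact two-sided permutation test over the libraries gave 0.10, the smallest p that 3 against 3 libraries allow.

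Set against Mbp, which encodes myelin basic protein, a major constituent of compact myelin, a difference in change was shown for Ank3 and not for Nfasc or Tubb3. Mbp had a log2 fold change of 0.98 (adjusted p = 0.0095 in edgeR's quasi-likelihood test). Ank3 fell against Mbp, by a log2 difference of -0.58 (95% interval -1.01 to -0.14, adjusted p = 0.015 from limma), and this call was lost without micropillar replicate 1 or 2 and with both summed (adjusted p up to 0.10). For Nfasc the difference was -0.17 (95% interval -0.59 to 0.26, adjusted p = 0.47) and for Tubb3 it was 0.13 (95% interval -0.32 to 0.58, adjusted p = 0.60), and in both the flat and micropillar ratios overlapped. Limma's standard errors for the ratios to Mbp, 0.21 to 0.23, are drawn in part from other genes as well. The exact two-sided permutation test over the libraries gave 0.1 for Ank3, 0.3 for Nfasc and 0.4 for Tubb3.

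**Figure D2:**
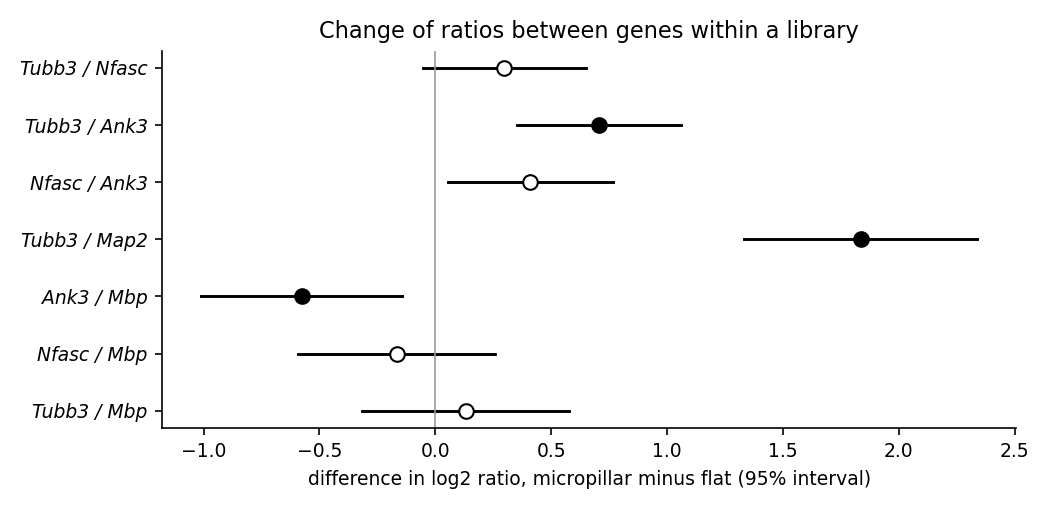
Difference in the log2 ratio of 2 genes within a library, micropillar minus flat, with its 95% interval from limma. Filled points have an adjusted p under 0.05. Tubb3 against Map2 (1.84), Tubb3 against Ank3 (0.71) and Ank3 against Mbp (-0.58) are filled. The adjustment was made separately for each second gene.

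The flat libraries did not fall in the same order in the 3 genes. As a share of the micropillar mean, Nfasc reached 70.9%, 52.2% and 46.8% in flat replicates 1, 2 and 3, and Tubb3 reached 56.1%, 46.4% and 35.8%. Ank3 reached 91.9%, 63.3% and 69.7%, so that its lowest library was flat replicate 2 and not flat replicate 3. The difference between these 2 libraries in Ank3 was larger than counting error, with exact 95% Poisson intervals of 339 to 358 CPM in flat replicate 2 and 372 to 395 CPM in flat replicate 3, which cover counting error only. The myelin genes Mbp, Mag, Mog and Mobp and the lineage factor gene Olig2 had the order of Ank3, and Cnp, Sptbn1, Arpc1b and Itgb1 had the order of Nfasc and Tubb3. Intervals of neighbouring flat libraries overlapped for Mag (replicates 2 and 3), Itgb1 (2 and 3) and Arpc1b (1 and 2), so the order of those libraries was within counting error, and they were apart in the other genes named here, Nfasc and Tubb3 included. Over all tested genes, 14.8% had the order of Ank3 and 18.0% that of Nfasc and Tubb3. Among the genes called higher on micropillars the shares were 15.7% and 43.5%.

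**Figure D3:**
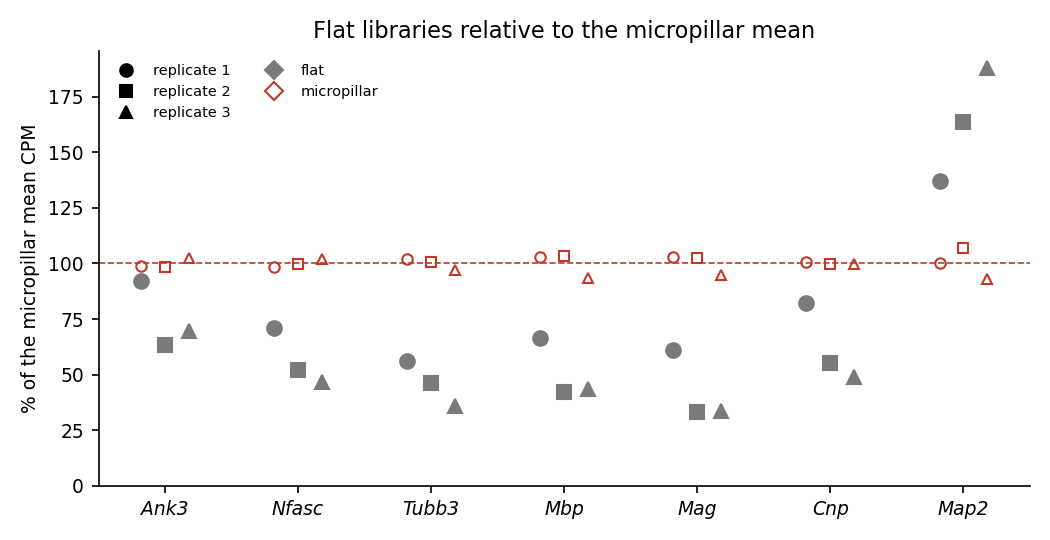
Level of each library as a percentage of the gene's mean over the 3 micropillar libraries (dashed line). Filled grey symbols are flat libraries and open red symbols micropillar libraries, with the shape giving the replicate number. Flat replicate 1 is the nearest to the micropillar libraries in all 7 genes, and Ank3 comes closest there, at 91.9%.

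The spectrins that ankyrins anchor were the nearest partners that could be named. Of the 7 other genes of the study's cytoskeleton panel, 3 rose, none fell and 4 did not pass the test, with a median log2 fold change of -0.01. Over all tested genes 15.3% were higher and 11.4% lower, and the median was -0.02. Sptbn4, encoding the beta-IV spectrin known from initial segments and nodes, was counted with 70, 91 and 57 reads in flat replicates 1, 2 and 3 and 189, 197 and 147 reads in micropillar replicates 1, 2 and 3. It rose by 1.15 on the log2 scale (standard error 0.20, adjusted p = 0.0041 in edgeR's quasi-likelihood test), but at 5.52 ± 0.47 CPM on flat and 12.3 ± 2.26 CPM on micropillar hydrogels (SD, 3 libraries each) it stayed far below Sptbn1. Sptbn1, encoding the widely expressed beta-II spectrin, stood at 840.2 ± 99.3 CPM on flat and 1124 ± 15.4 CPM on micropillar hydrogels (SD, 3 libraries each). Its log2 fold change of 0.42 (adjusted p = 0.034) was close to that of Ank3 in size, and 7 of 16 alternatives took its call away (adjusted p up to 0.13).

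The third gene of that panel to rise was Arpc1b, encoding a subunit of the Arp2/3 complex that branches actin filaments, at 0.94 on the log2 scale (standard error 0.18, adjusted p = 0.0062 in edgeR's quasi-likelihood test). Arpc2, another subunit of the complex, had -0.10 (adjusted p = 0.57). The GTPase genes Rac1 and Cdc42 had -0.08 and -0.15, and Rhoa had -0.01, with adjusted p from 0.41 to 0.97 and overlapping groups in each. The sources used here do not say how the panel was chosen, so its counts are not taken as independent evidence of a direction.

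Of the 5 other genes of the study's adhesion panel, none rose, 1 fell and 4 did not pass the test, with a median log2 fold change of -0.14. Among all tested genes 15.3% were higher and 11.4% lower, so that so few calls among 5 genes do not set this panel apart. Itgb1 and Itga6, which encode the laminin-binding integrin subunits beta 1 and alpha 6, had 0.28 (adjusted p = 0.092 in edgeR's quasi-likelihood test) and -0.25 (adjusted p = 0.099). The focal adhesion kinase gene Ptk2 had 0.17 (adjusted p = 0.29). The laminin gene Lamb1 fell in the test, from 13, 40 and 14 reads in flat replicates 1, 2 and 3 to 2, 0 and 4 reads in micropillar replicates 1, 2 and 3, and Lama2 had 8 to 15 reads in every library. With all libraries in edgeR, Nfasc was the 1 gene of its panel called higher. Without flat replicate 1, Itgb1 (adjusted p = 0.028) and Ptk2 (0.043) were called higher as well, and Itgb1 was also called by DESeq2 (0.046). Itga6 was called lower with library totals as the scaling (0.021) and without flat replicate 2 (0.034).

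**Figure D4:**
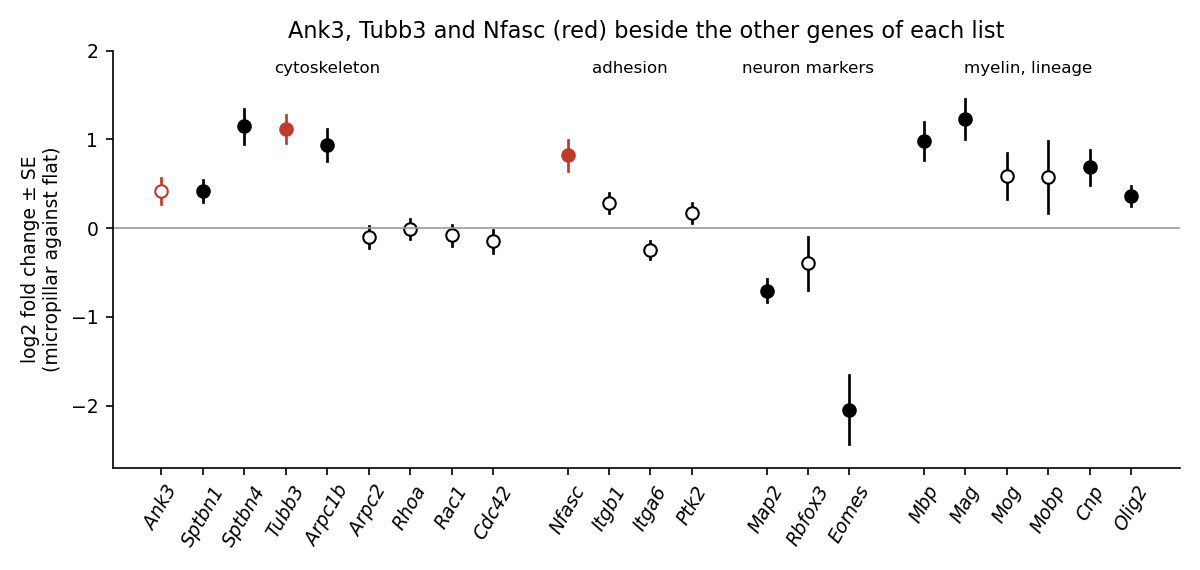
Log2 fold change of micropillar against flat hydrogels with its standard error from edgeR, for Ank3, Tubb3 and Nfasc (red) and for named genes of the cytoskeleton, adhesion, neuron and myelin lists (black). Filled points have an adjusted p under 0.05. Tubb3 lies at 1.12 and Map2 at -0.70. Lamb1 and Lama2 are left out because of their low counts.

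Tubb3 and Map2, both used as neuron markers, changed in opposite directions. Map2, which encodes a microtubule-associated protein of dendrites, had levels of 218, 261 and 299.7 CPM on flat hydrogels and of 159.7, 170.4 and 148 CPM on micropillars, in replicate order. It fell by 0.70 on the log2 scale (standard error 0.13, adjusted p = 0.0054 in edgeR's quasi-likelihood test), without overlap between the groups and in each of the 16 alternatives. Eomes, encoding a transcription factor of neuronal progenitors, fell from 22, 28 and 18 reads to 6, 5 and 7 reads (log2 fold change -2.04, adjusted p = 0.0054). Rbfox3, which encodes the neuronal nuclear protein NeuN, had 27 to 43 reads in a library and a log2 fold change of -0.40 (adjusted p = 0.34).

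There were 0.970, 0.670 and 0.450 reads of Tubb3 per read of Map2 in flat replicates 1, 2 and 3 and 2.41, 2.23 and 2.48 in micropillar replicates 1, 2 and 3. The log2 difference of 1.84 (95% interval 1.33 to 2.34) had an adjusted p of 1.3e-05 from limma on the ratios to Map2, and it passed the threshold in all 10 alternatives run for it. The exact two-sided permutation test gave 0.10, the smallest p it allows. The SD of this log2 ratio was 0.55 in flat and 0.08 in micropillar libraries. For limma the spread is the same in both groups and is drawn in part from other genes, so its small p does not rest on these values alone. In the flat libraries the order of Map2, lowest in replicate 1 and highest in replicate 3, was the reverse of that of Nfasc and Tubb3.

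Levels were also summed over the marker list of each cell type. The 3 neuron markers without Tubb3 summed to 222 to 304 CPM in flat libraries and to 150.3 to 173 CPM in micropillar libraries, with none higher and 2 lower, a sum made up almost wholly of Map2. With Tubb3 the 4 neuron markers summed to 434 to 441 CPM on flat and 517 to 553 CPM on micropillar hydrogels. Of the 5 markers of mature OLs, 3 were higher and none lower, and their sum was 27408 to 45673 CPM on flat and 60434 to 66372 CPM on micropillar hydrogels, where 15.3% of all tested genes were higher. Of these calls, that of Cnp was lost in 6 of 16 alternatives (adjusted p up to 0.096) and that of Mbp on rlog values (0.0595). Mbp held most of the mature OL sum, at 19842 to 31361.5 CPM on flat and 43892 to 48706 CPM on micropillar hydrogels. Mog (log2 fold change 0.59, adjusted p = 0.11 in edgeR's quasi-likelihood test) and Mobp (0.58, adjusted p = 0.31) were not called, and their groups overlapped. In flat replicate 1 Mobp stood at 3489 CPM, above each micropillar library (2634 to 3321 CPM). Of the 7 astrocyte markers, 3 were higher and 1 lower, with sums of 1258 to 2041 CPM and 2205 to 2774 CPM. Without Gfap, the filament gene that held most of that sum, the other 6 summed to 459 to 705 CPM and 555 to 702 CPM, and the groups overlapped. The 2 markers of precursors summed to 286 to 363 CPM and 279.6 to 316 CPM, and they went opposite ways. Cspg4 was higher (log2 fold change 0.54, adjusted p = 0.0052 in edgeR's quasi-likelihood test). Pdgfra was at -0.38 and not called (adjusted p = 0.058), with overlapping groups. The microglial marker Cx3cr1 had at most 2.32 CPM. The 3 neural stem cell markers summed to 238 to 286 CPM and 257 to 287 CPM, none of them called. The part of any of these cell types in the values of Ank3, Nfasc and Tubb3 was not tested.

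Over the 6 libraries, the genes with a symbol whose log2 CPM was most like that of a given gene were found by Pearson's r among 75 candidates, as a description of libraries that share their substrate groups. For Nfasc they were Mag, encoding myelin-associated glycoprotein (r = 0.990), Mvd, encoding an enzyme of the mevalonate pathway (0.990), and Tubb3 itself (0.987). For Tubb3 they were Mvd (0.992), the zinc transporter gene Slc39a7 (0.989) and the proteoglycan gene Bcan (0.989). For Ank3 they were Ptk2 (0.967), Mag (0.962) and the receptor gene Gpr62 (0.961). Ank3 had r = 0.941 with Nfasc and 0.879 with Tubb3. Of the 13162 other tested genes, 154 were at least as close to Nfasc as Tubb3 was, and over the top pairs listed for each gene 93 to 224 were. The candidates came from the study's own panels. These include its leading differentially expressed genes from the same libraries, to which Mvd, Slc39a7 and Bcan belong. A high r was thus to be foreseen for such genes and is no separate evidence of a link.

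Ank3 and Nfasc are long genes, and the class of long genes had a median change below 0, against -0.02 over all tested genes. In the tenth of tested genes with the longest genomic span, 121.5 kb or more, the median log2 fold change was -0.12, with 10.1% of genes higher and 15.9% lower. Of the 1317 genes of that class, 14.0% had a log2 fold change at or above that of Ank3 and 3.42% at or above that of Nfasc. In the tenth that holds Tubb3, from 6.03 to 10.1 kb, the median was 0.08, 19.5% of genes were higher, and 3.72% stood at or above Tubb3. With offsets for exonic length in each library, Ank3 had a log2 fold change of 0.55 and an adjusted p of 0.024 in edgeR's quasi-likelihood test.

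**Figure D5:**
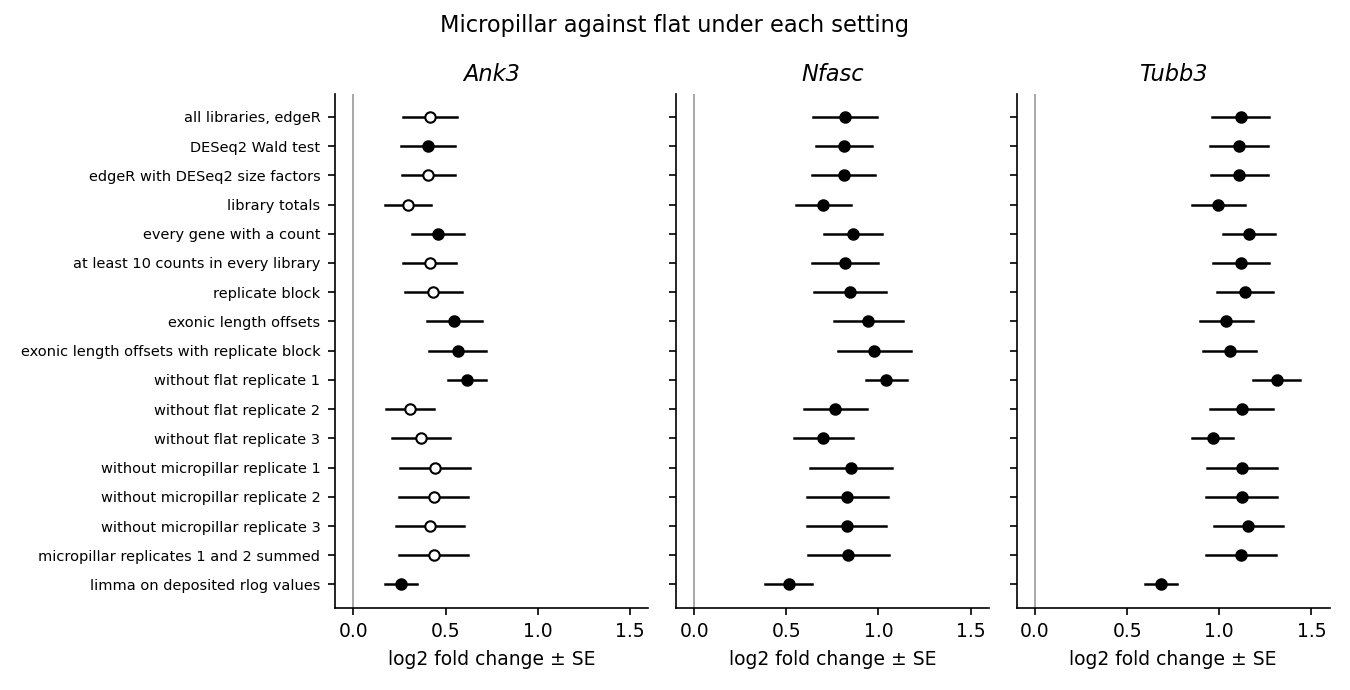
Log2 fold change of micropillar against flat hydrogels with its standard error for the 3 genes, with all libraries in edgeR (top line) and under each of 16 alternatives. Filled points have an adjusted p under 0.05. All points of Nfasc and Tubb3 are filled, and 6 of the alternatives are filled for Ank3.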

How the data were processed

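Poly(A)-selected RNA was sequenced as paired-end reads. After adapter trimming, the authors used STAR 2.5.2b for alignment to Rnor6.0 and deposited raw counts of unique exonic reads per Ensembl gene from featureCounts (Subread 1.5.2), one file per library. The authors also deposited rlog values, a shrunken log2 transform by DESeq2, of 13061 genes whose counts sum to over 60. Whether counting used the strand is not given in the sources used here.

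The test on counts was glmQLFTest of edgeR 4.0.16 under R 4.3.3, after filterByExpr and TMM and with no block. The standard error is the log2 fold change divided by the square root of F. Ratios were tested with limma 3.58.1 on log2 CPM (prior count 2) minus that of the second gene, beside an exact permutation test; 7 ratios were run. In simulated counts, edgeR recovered 95.8% of 200 genes changed 2-fold at over 10 CPM among 13001 to 13010 genes, with 5.78% false calls, and DESeq2 1.42.0 recovered 97.1%, with 11.5% false calls. In 60 simulated sets without change, 5.92% of ratios had an unadjusted p under 0.05. Whether these rates hold when 26.7% of genes are called, as in the data, was not tested. Whether they hold for the wider spread of the flat libraries (median SD of log2 CPM 0.24, against 0.11 on micropillars) was not tested either.

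The files hold identifiers only. Symbols of 76 genes were assigned by finding the identifier whose counts give the values in the study's source data, and each of the 83 entries had 1 match, those of the 3 genes on the chromosome that RefSeq gives. Genes without a symbol could not be named, among them most other ankyrins, spectrins and node proteins. Named genes were the 3 genes, the study's cytoskeleton and adhesion panels, its neuron markers, myelin and lineage genes (1 of which is not reported here) and, for each of the 3, the 3 most correlated genes with a symbol. The members and lists were chosen with earlier results of these data known. The replicate numbers were not taken to pair libraries. Alternatives were other scalings, filters and tools, the block, offsets for exonic length, each library left out, micropillar replicates 1 and 2 summed, and the rlog values.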

Additional observations from a re-analysis of the deposited data

How the results depend on the processing

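Nfasc and Tubb3 were called higher in all 16 alternatives, with log2 fold changes of 0.51 to 1.04 and 0.69 to 1.31, the lowest on the shrunken rlog values; without each library in turn they were 0.70 to 1.04 and 0.96 to 1.31. Ank3 (0.42) was called with DESeq2 (0.41), every gene with a count (0.46), exonic length offsets (0.55, and 0.57 with the replicate block as well) and rlog values (0.26), and without each library in turn it ran from 0.31 to 0.62. The same replicate numbers did not pair the libraries (correlations of deviations 0.07, -0.08 and 0.0021), only 2 of 6 libraries were closest to the library of their own number, and with the replicate number as a block the adjusted p was 0.058 for Ank3, 0.0075 for Nfasc and 2.6e-04 for Tubb3, which changed no call of the 3 genes or of the 7 ratios, took away those of Sptbn1 (0.064) and Olig2 (0.075), gave 1 to Mog (0.027) and left 3315 genes called. The total of 3514 called genes was 1461 with micropillar replicates 1 and 2 summed and 1358 to 4622 without each library in turn (2236 without flat replicate 3, and 1484, 1358 and 2288 without micropillar replicates 1, 2 and 3). Without each library in turn the 2014 higher genes ran from 941 to 2632 and the 1500 lower genes from 417 to 1990. Of the log2 ratios without each library in turn, Tubb3 to Nfasc ran from 0.25 to 0.36, Nfasc to Ank3 from 0.33 to 0.48 (0.25 on rlog values) and Ank3 to Mbp from -0.64 to -0.52 (-0.54 with micropillar replicates 1 and 2 summed). Uncalled genes near 0 changed sign: Rhoa was at 0.039 with every gene with a count, at 0.0039 with the summed library and at -0.048 to 0.033 without each library in turn. Lama2 was at -0.21 to 0.056 without each library in turn. The cause of these changes was not tested. Depth limits Lamb1, Lama2, Eomes and Rbfox3, which rest on fewer than 50 reads a library.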

Other observations

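On the deposited rlog scale, Ank3 stood at 12.7, 12.4 and 12.5 in flat replicates 1, 2 and 3 and at 12.8 in each micropillar library. Nfasc stood at 16.04, 15.8 and 15.7 and then at 16.3, 16.3 and 16.4, and Tubb3 at 11.6, 11.5 and 11.2 and then at 12.1 in each micropillar library. On this scale, which re-expresses the same counts, the groups of each gene were likewise apart. In CPM, 24.3% of all tested genes were apart in this direction.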
